A study of Homo sapiens with 4 samples.

Results

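PDK2, PDK3, PDK4 and PYGM are 4 fuel-choice enzyme genes among the 742 gene symbols that the authors listed as differentially expressed after knockdown of the long non-coding RNA HMRHL. They were chosen because each symbol is a row of the authors' deposited table, so their being in it is the rule and not a finding. The study sequenced RNA from K562, an established human chronic myelogenous leukaemia line that the labels call lymphoblast. Cells received either an siRNA against HMRHL (2 libraries) or a scramble siRNA (2 libraries), and RNA was taken 36 hours after transfection. All 4 libraries come from this single line, and the labels do not say whether libraries of a group are separate cultures. The table gives 1 fold change for each gene. Values per library, errors, p-values and expression levels were not analysed here, so no spread between replicates can be set beside any difference below, and the depth behind each value is unknown. The values were read as log2 of HMRHL siRNA over scramble siRNA. Neither this scale nor this direction is stated in the table.

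Pyruvate dehydrogenase kinases phosphorylate the pyruvate dehydrogenase complex in the mitochondrion and shut it, which keeps pyruvate from becoming acetyl-CoA and favours lactate or the burning of fat. Glycogen phosphorylases release glucose units from stored glycogen, and are themselves switched on when phosphorylase kinase phosphorylates a serine near their amino terminus. PHKB, the gene for the beta subunit of that kinase, hosts HMRHL in an intron. PHKB was not among the listed symbols, and HMRHL has no entry in a table limited to protein-coding genes, so the knockdown itself could not be checked. An unlisted gene had not been selected by the authors, which does not show equal levels in both groups.

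The kinases are close relatives of each other. The capitals below mark codons of the glycine-rich ATP-binding loop that kinases of this family share, within 60 coding bases of the 4 human paralogs. They show where the RNA of the paralogs differs within a conserved part of the protein.
PDK2: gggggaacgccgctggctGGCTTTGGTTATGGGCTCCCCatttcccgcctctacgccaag
PDK3: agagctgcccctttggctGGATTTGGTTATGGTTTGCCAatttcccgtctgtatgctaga
PDK4: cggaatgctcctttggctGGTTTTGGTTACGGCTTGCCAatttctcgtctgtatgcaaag
PDK1: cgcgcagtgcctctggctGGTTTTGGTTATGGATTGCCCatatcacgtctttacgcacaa
Each stretch crosses an exon junction of its GENCODE principal transcript, on chromosomes 17, X, 7 and 2 in that order. PDK3 and PDK4 each differ from PDK2 at 19 of the 60 bases, and PDK1 at 17. The capitals begin at coding base 973 in PDK2, 967 in PDK3, 985 in PDK4 and 1060 in PDK1.

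Of the 4 human pyruvate dehydrogenase kinases, PDK2, PDK3 and PDK4 were listed and PDK1, a known target of hypoxia-inducible factor, was not. They went in opposite directions. PDK2, the broadly expressed kinase of the family, had a log2 fold change of -4.83 in the authors' deposited table. On that scale, PDK2 RNA with the HMRHL siRNA was 3.51% of that with the scramble siRNA, a 28.5-fold difference. PDK2 was rank 6 by size among the 515 lower symbols. PDK3, an X-linked kinase known for its high activity, stood at -3.10 in the authors' deposited table, which is 8.55-fold lower, or 11.7% of the scramble level. It was rank 42 of the 515.

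PDK4 was the member listed as higher. Fasting and fatty acids are known to induce it in muscle and heart through PPAR, FOXO and glucocorticoid receptors. Its log2 fold change in the authors' deposited table was 1.55, a 2.92-fold higher level with the HMRHL siRNA than with the scramble siRNA. This is near the edge of the list. PDK4 was rank 218 of 227 higher symbols, and 9 higher symbols lay between it and 0. The smallest of them was BBOX1 at 1.50 in the authors' deposited table, so PDK4 lay 0.042 log2 units inside the list. What lies just outside is not analysed here.

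PYGM had a log2 fold change of -2.07 in the authors' deposited table, which is 4.20-fold lower, or 23.8% of the scramble level. Loss of this enzyme in people causes McArdle disease, in which muscle cannot use its glycogen. PYGM was rank 160 of 515 lower symbols, closer to the middle of that group than the kinases were. The lower symbol nearest to 0 was SLC17A7 at -1.15 in the authors' deposited table, 0.92 log2 units nearer to 0 than PYGM. The other phosphorylases, PYGL and PYGB, were not listed.

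**Figure D1:**
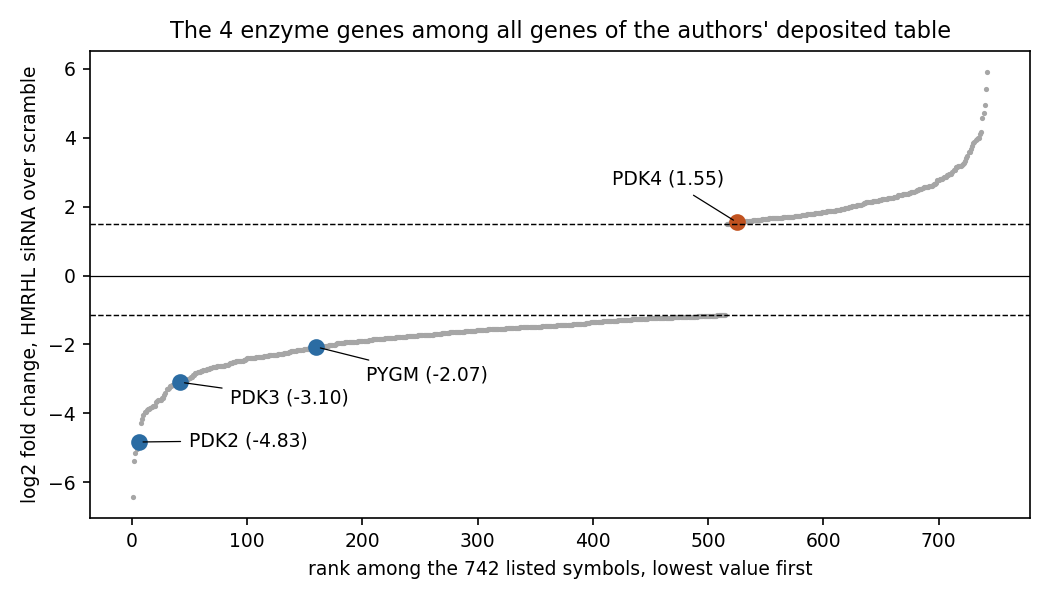
The x axis gives the rank of each of the 742 listed symbols from lowest to highest and the y axis the authors' log2 fold change, with 1 point per symbol. Dashed lines mark the values nearest to 0 in each direction, 1.50 and -1.15. PDK2 lies at the low end, PDK3 and PYGM along the lower arm, and PDK4 near the start of the upper arm.

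Among themselves the 4 genes were 3 lower and 1 higher, with a median of -2.58 on the log2 scale. Over all listed symbols in the authors' deposited table, 69.4% were lower and 30.6% higher, and the median was -1.44. Of annotated protein-coding symbols, 3.71% were listed, 2.57% as lower and 1.13% as higher. At least 4-fold values were listed for 39.6% of all listed symbols and for 3 of the 4 genes. Since the 4 genes were picked from the same contrast, nothing is read from these shares. The values of PDK2 and PDK4 in the authors' deposited table differ by 6.38 log2 units, so the ratio of PDK2 to PDK4 RNA was 83.1-fold lower with the HMRHL siRNA than with the scramble siRNA. The ratio of PDK3 to PDK4 was 25.0-fold lower on the same reading. PDK2 and PDK3 differ by 1.74 log2 units, a 3.33-fold difference between 2 fold changes. None of these differences could be tested, and which kinase supplies most of the RNA in K562 cannot be read from fold changes.

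With 1 contrast, the genes most like each member can be named only by closeness of that value. In the authors' deposited table PDK2 lay between the cytochrome P450 gene CYP2F1 (-4.84) and SPATA6 (-4.77), and next beyond them were DGKI (-5.02) and ENAM (-4.29). PDK3 lay between HOMER2 (-3.14) and PCBP3 (-3.09) in the authors' deposited table, flanked by TEX38 (-3.15) and HHIPL2 (-3.09). PDK4 lay between the histone variant gene H2AFY2 (1.54) and the receptor gene LGR6 (1.55) in the authors' deposited table, flanked by KLF2 (1.54) and RGS1 (1.58). PYGM lay between the ciliary assembly gene DNAAF1 (-2.08) and ASPA (-2.07) in the authors' deposited table, flanked by SLC7A3 (-2.08) and PTAFR (-2.06). None of these 16 neighbours is on the lists of fuel genes used here.

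In GENCODE release 29 on GRCh38, PDK2 (ENSG00000005882.11) spans chr17:50094737-50112152 on the plus strand with 16 annotated transcripts, the principal one of 11 exons. PDK3 (ENSG00000067992.13) spans chrX:24465221-24541862 on the plus strand, with 4 transcripts and 12 exons in the principal one. PDK4 (ENSG00000004799.7) spans chr7:95583499-95596491 on the minus strand, with 5 transcripts and 11 exons. PYGM (ENSG00000068976.13) spans chr11:64746389-64760297 on the minus strand, with 5 transcripts and 20 exons. PDK3 covers 76.6 kb, against 17.4 kb for PDK2, 13.0 kb for PDK4 and 13.9 kb for PYGM.

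PDK2 is the one among the 4 whose exons overlap those of another gene. The last part of its principal transcript is covered by exons of SAMD14 on the opposite strand, over 2113 of 3440 bases (61.4%). Of the coding bases of PDK2, 55 lie in this overlap, the rest being non-coding in PDK2. The libraries were made with a stranded kit, but the labels do not say whether the authors counted reads by strand. SAMD14 was not listed. Its part in the PDK2 value was not tested. No exon of PDK3, PDK4 or PYGM overlaps an exon of another annotated gene on either strand.

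Likeness within the families was measured because it bears on which gene a read is given to. Coding sequences of PDK2 and PDK3 were 66.9% identical over their aligned bases, those of PDK2 and PDK4 64.6%, and those of PDK3 and PDK4 67.1%. The longest exact run that any of these 3 pairs shares was 25 bases, between PDK2 and PDK4. PYGM was 73.9% identical to PYGL, with a longest exact run of 35 bases, and 78.5% identical to PYGB, with one of 29 bases. A BLAST search of annotated transcripts (expect value at most 1e-05) kept 0 alignments with at least 95% identity over their whole length between any of the 4 genes and a gene elsewhere. The short exact runs above are not among what it kept.

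The promoters of the 3 kinases are shown because these paralogs were listed in different directions. RefSeq windows of 300 bases (250 before and 50 after a start site, GRCh38.p14) were matched for 3 of the 4 genes. PYGM was not matched. Printed is the upstream part of each window, cut before any annotated exon of the gene that falls in it. It runs 5′ to 3′ on the strand of the gene, with the CCAAT motif on either strand in capitals.
PDK2: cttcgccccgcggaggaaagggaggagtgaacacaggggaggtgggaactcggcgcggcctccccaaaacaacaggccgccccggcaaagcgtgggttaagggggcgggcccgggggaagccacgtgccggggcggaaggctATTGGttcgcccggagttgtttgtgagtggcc
PDK3: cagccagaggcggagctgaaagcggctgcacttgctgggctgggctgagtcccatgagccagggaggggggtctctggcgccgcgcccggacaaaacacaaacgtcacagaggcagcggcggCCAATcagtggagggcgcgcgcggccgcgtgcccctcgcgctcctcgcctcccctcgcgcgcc
PDK4: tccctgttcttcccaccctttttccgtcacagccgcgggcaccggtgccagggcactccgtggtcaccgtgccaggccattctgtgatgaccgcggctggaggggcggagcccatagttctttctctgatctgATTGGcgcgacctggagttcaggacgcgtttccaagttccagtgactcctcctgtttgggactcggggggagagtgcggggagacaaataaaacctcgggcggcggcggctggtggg
They lie at chr17:50095101-50095274 (plus strand), chrX:24465036-24465220 (plus strand) and chr7:95596517-95596766 (minus strand). For PDK2, which has 3 windows in the table, the one nearest to the start of the principal transcript was used. The PDK2 stretch lies inside the annotated span of the gene, which begins at chr17:50094737, so it does not precede every annotated exon of PDK2. The PDK3 and PDK4 stretches lie outside the spans of their genes. The PDK4 stretch also overlaps an exon of AC002451.1, an antisense RNA gene that runs the other way.

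Each of the 3 stretches holds 1 CCAAT motif. Over the whole windows, PDK2 had 3, PDK3 had 1 and PDK4 had 1, and of all 35116 RefSeq windows of the same length 34.6% hold at least 1 and 10.8% at least 2. The GC box GGGCGG occurred 3 times in the PDK2 window and 2 times each in those of PDK3 and PDK4, and 26.7% of all windows hold at least 2. The E-box CACGTG occurred 1 time in PDK2, in 7.26% of all windows, and not in the other kinases. Further motifs were sought on both strands and were in none of the 3 windows. These were the TATA box TATAAA, in 11.5% of all windows, and the nuclear receptor half-site AGGTCA, in 13.8%. The forkhead motif TGTTTAC was in 3.42% of all windows and the GATA motif AGATAA in 10.3%. The share of G and C was 69.7% for PDK2, 74.3% for PDK3 and 60.7% for PDK4, and the median over all windows was 58.7%. CCAAT and GC boxes were in all 3 windows, those of PDK2 and PDK3, listed as lower, and that of PDK4, listed as higher. At least 1 GC box was in 45.0% of all windows. Whether any motif goes with direction was not tested.

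The other genes of the fuel network were counted from lists. None of the 6 genes of the pyruvate dehydrogenase complex itself appeared, and of the 8 kinases, phosphatases and the related branched-chain kinase only the 3 kinases did. None of the 8 phosphorylase kinase and calmodulin genes and none of the 20 genes of glycogen synthesis and its regulators appeared. Of 6 phosphorylase and debranching genes, PYGM alone was listed. The 21 tricarboxylic acid cycle genes and the 44 genes of fatty acid uptake and oxidation, the route that PDK activity favours, had 0 members listed. These lists do not hold every gene of their routes. Outside them, the acyl-CoA synthetase genes ACSBG2 (-2.40) and ACSM6 (-1.73) and the carnitine synthesis gene BBOX1 (1.50) were listed in the authors' deposited table. Without PDK2, PDK3, PDK4 and PYGM, the fuel lists held 225 genes, of which 7 were listed (3.11%), 4 higher and 3 lower. Over all annotated protein-coding symbols the share was 3.71%, so the fuel lists were near the background and nothing is read from the genes not listed.

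These 7 genes handle pyruvate, glucose or their control. SLC16A7, a monocarboxylate transporter with high affinity for pyruvate and lactate, stood at -2.61 in the authors' deposited table, between PYGM and PDK3 in size. PCK1, the cytosolic enzyme that makes phosphoenolpyruvate for gluconeogenesis, stood at 1.66 in the authors' deposited table, close to PDK4. Both PCK1 and PDK4 are known as fasting genes in liver. Of 37 glycolysis and gluconeogenesis genes, TIGAR alone was listed. TIGAR, a phosphatase that slows glycolysis, was at -1.68 in the authors' deposited table. Of 17 glucose transporters, 3 were listed. SLC2A6 stood at 2.20, the renal sodium-glucose cotransporter gene SLC5A2 at 1.53 and SLC2A10 at -1.19 in the authors' deposited table. Of 42 regulators of fuel genes, including the PPAR, FOXO and hypoxia-inducible factors that act on PDK genes, HNF4G alone was listed, at 3.98 in the authors' deposited table. HNF4G is a nuclear receptor of gut and kidney.

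**Figure D2:**
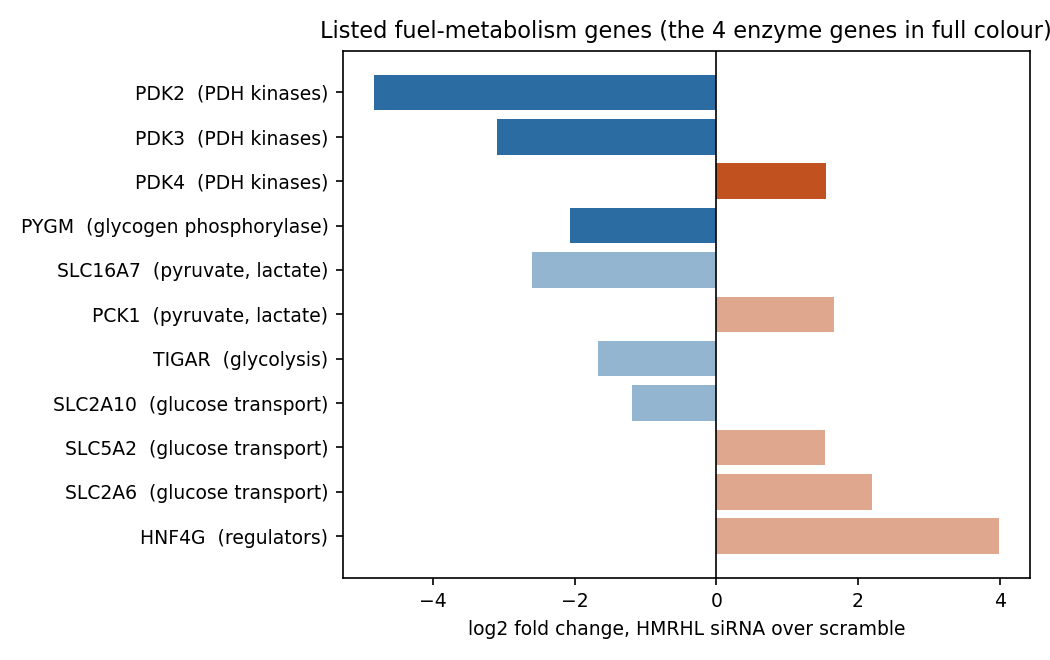
Horizontal bars give the authors' log2 fold change (x axis) of each of the 11 listed genes on the fuel lists, grouped by role, with PDK2, PDK3, PDK4 and PYGM in full colour. Blue bars were listed as lower with the HMRHL siRNA than with scramble and orange bars as higher; 6 are lower and 5 higher, and bars of both directions stand among the kinases, the pyruvate genes and the glucose transporters.

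PYGM is a gene of skeletal muscle, so other muscle genes were counted. Of 31 skeletal muscle markers 3 were listed (9.68%), against 3.71% of all annotated protein-coding symbols. They were the troponin gene TNNC1 at -2.34, the fast myosin light chain MYLPF at -2.01 and the embryonic myosin MYH3 at 2.23 in the authors' deposited table. TNNC1 and MYLPF thus stood close to PYGM in value and MYH3 stood on the other side of 0. The muscle creatine kinase gene CKM, the actin gene ACTA1 and the myogenic factor genes MYOD1 and MYOG were among the 28 markers not listed. The marker list does not hold every muscle gene, so its share is not that of all muscle genes. Muscle genes outside it were listed in both directions. Among them were MYH7B (-2.16), MYLK2 (-2.04), ACTN2 (-1.33), TCAP (1.83), TRIM54 (2.16) and XIRP2 (2.25) in the authors' deposited table. Of 36 erythroid markers, which mark the lineage K562 is known to resemble, 0 were listed, a count near the background of 3.71%. This list is partial too. The blood group genes ART4 (2.35) and BCAM (2.60) and the erythroid gene TRIM10 (-2.31), all outside it, were listed in the authors' deposited table. Since levels were not analysed here, the cell type could not be checked against its markers.

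The positions of other listed genes around the 4 were counted next. The adjoining protein-coding genes on either side were ITGA3 and SAMD14 for PDK2, ZFX and PCYT1B for PDK3, ASB4 and DYNC1I1 for PDK4, and RASGRP2 and SF1 for PYGM. None of these 8 was listed, which with 3.71% of all annotated protein-coding symbols listed is near the background. The nearest listed gene to PYGM was NRXN2, 23.2 kb away and at 1.52 in the authors' deposited table, the opposite direction to PYGM. On its other side was NAALADL1, 285 kb away and at -1.48 in the authors' deposited table. PDK2 had CHAD, a cartilage matrix gene, 352 kb away at -2.96 and SKAP1, an adaptor of T cells, 1664 kb away at 2.28 in the authors' deposited table. For PDK4 the imprinted gene PEG10 lay 914 kb away at -1.77, and ZCWPW1 lay 4804 kb away at -1.57 in the authors' deposited table. For PDK3 the nearest were MAGEB10, 3266 kb away at 1.70, and ASB11, 9150 kb away at 2.60 in the authors' deposited table.

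Within 5 Mb on either side, 2 of 117 other protein-coding genes around PDK2 were listed (1.71%), 1 of 36 around PDK3 (2.78%), 5 of 108 around PDK4 (4.63%) and 9 of 294 around PYGM (3.06%). Over all annotated protein-coding symbols the share was 3.71%. In 3 of the 4 windows genes of both directions were listed; around PDK3 the only one was higher.

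**Figure D3:**
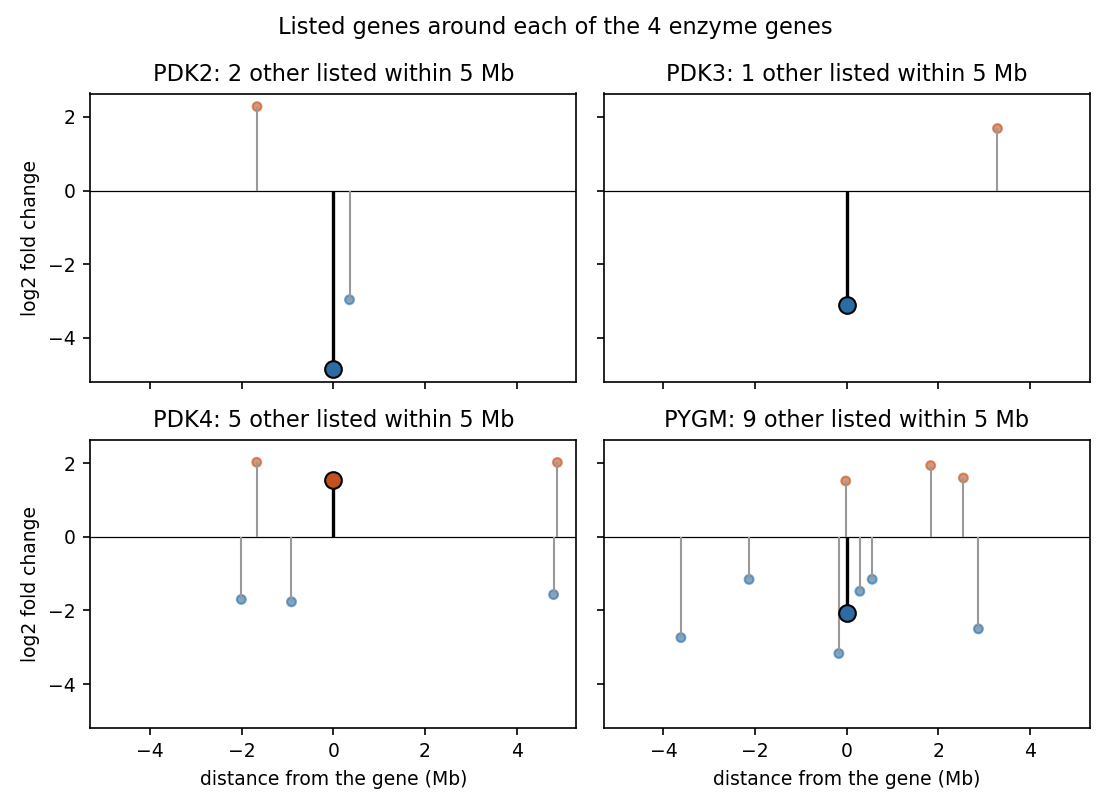
Each panel gives the listed genes within 5 Mb of a gene, with the distance from it in Mb on the x axis (negative toward lower coordinates) and the authors' log2 fold change on the y axis. The large outlined point at 0 is the named gene and small points are its listed neighbours, 2 around PDK2, 1 around PDK3, 5 around PDK4 and 9 around PYGM; around PDK2, PDK4 and PYGM they lie on both sides of 0.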

How the data were processed

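RNA from 4 K562 libraries was compared, 2 with an siRNA against HMRHL and 2 with scramble. The submitters' processing notes name Cuffdiff, Cufflinks, TopHat, Bowtie2, SAMtools 1.3.1 and Trim Galore 0.4.4, with GRCh38 (hg38). Their order and settings, and the threshold for listing a gene, are not given in the sources used here. The authors deposited 831 rows with a symbol and a fold change, read here as log2, the scale that Cuffdiff writes. The values do not settle this, since signed linear fold changes could look alike. Repeated rows carried identical values, so each of 742 symbols was counted once. The depth per library is unknown, and no test was made. The genes, lists and naming rule (the 4 genes, listed genes on the lists, nearest by value and by position) were chosen with earlier results of these data known. Some listed genes outside the lists were named only to show that the lists are partial. Coding sequences were aligned with Biopython 1.88 (match 1, mismatch -1, gap opening -5, extension -1) and copies sought with BLAST 2.17.0 at 95% identity. Some items are not reported here and were left out of the lists. Functions were tested on simulated data. Alternatives were every row, a 4-fold minimum, an equal minimum, a linear scale, ranks over all symbols and older symbols. Python 3.11.15, numpy 2.4.6, pandas 2.3.3 and matplotlib 3.10.9 were used.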

Additional observations from a re-analysis of the deposited data

How the results depend on the processing

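The alternatives run all reuse the deposited value of each gene, so none of them could turn a sign. PDK4 is lost at 4-fold. At a minimum of 4-fold, PDK2, PDK3 and PYGM were left as 3 lower and 0 higher, while all listed symbols were 176 lower and 118 higher, against 515 and 227 without a minimum. With the minimum set to 1.50 for lower genes too, 339 lower symbols were left, and all 4 genes stayed. Read as signed linear fold changes, the log2 values would be -2.27 for PDK2, -1.63 for PDK3, 0.63 for PDK4 and -1.05 for PYGM. By size among all 742 symbols, PDK3 was rank 70, PDK4 rank 536 and PYGM rank 269. The other 10 comparisons, among them every row counted and older symbols translated, gave the same value or one within 1.5 times. If the table runs from knockdown to scramble, every sign turns. No paired analysis was possible because the values carry no replicate, and for the same reason leaving out a library was not run.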

Other observations

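Groups of symbols like PDK2, PDK3 and PDK4 were compared by direction. Symbols that share letters and differ only in a final number were grouped after their values were seen, which catches families but also unrelated genes. Of 59 such groups with at least 2 listed symbols, 38 had symbols in both directions, as had 14 of 16 groups with at least 3. With 515 lower and 227 higher symbols in all, many groups would hold both directions whatever their genes, so nothing is read from these counts. By the distance between the lowest and highest value in the authors' deposited table, the PDK group, at 6.38 log2 units, was rank 3 of the 59. The LDLRAD group (7.93) and the SPATA group (6.50) were wider in the authors' deposited table, and the chromatin remodellers CHD5 and CHD8 (6.04) were next. No test was made, since the PDK genes were chosen from the same values.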
